A study of Mus musculus with 12 samples.

Results

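Resident Kupffer cells are the macrophages that live inside the sinusoids of the liver, and 10 genes that mark them in mice are described here in livers lacking Hsd17b13 and in wild-type livers. The 10 genes (Clec4f, Cd5l, Vsig4, Timd4, Marco, Clec1b, Slc40a1, Cd163, Folr2 and Adgre4) were taken by name from a table of 20143 genes, and each matched exactly 1 row. The KO group held 6 livers of Hsd17b13-KO mice and the WT group 6 livers of wild-type mice, with 1 RNA library per mouse. All 12 mice started at 8 to 10 weeks of age on CDAA-HFD, a fat-rich diet of defined amino acids that lacks choline, and ate it for 12 weeks, so no liver on a normal diet is part of the comparison. Such diets are known to give a fatty, inflamed and scarred liver. The labels give the genotype without the design of the allele, and no strain, litter or housing, and whole liver was used, so each value is an average over hepatocytes and every other cell.

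Kupffer cells settle in the liver before birth, renew themselves there and clear bacteria, worn red cells and debris from portal blood. Their identity depends on signals from sinusoidal endothelial and stellate cells and on factors such as LXR-alpha (Nr1h3), SpiC, ID3 and ZEB2. In steatohepatitis resident cells are known to die and to be replaced in part by recruited monocytes, some of which become lipid-associated macrophages. Recruited cells take on Clec4f and Cd5l early and Timd4 late, so Timd4 is used in mice to mark cells of embryonic origin.

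The values are CPM, counts scaled so that each library sums to 1000000 over the listed genes. By estimate, 1 CPM stood for 59.0 ± 11.1 counts in KO and 62.4 ± 9.08 counts in WT (SD, n = 6 each), with 46.3 counts the lowest and 77.9 the highest. The estimate took the step of which the low values in a library were most often whole multiples. Hsd17b13 itself was at 0.956 to 1.40 CPM in KO and at 315 to 393 CPM in WT, so every library followed its genotype label. The Y-linked Ddx3y was at 42.0 CPM or more and Xist at 1.36 CPM or less in all 12 libraries. KO mice 1 and 3 stood apart from the other KO mice in the ribosomal gene Rplp0 and its pseudogene Gm8730: of the summed CPM of this pair Gm8730 took 31.4% and 31.6% in these mice, 59.7% to 60.9% in KO mice 2, 4, 5 and 6, and 7.09% to 8.19% in WT. Hsd17b13 lies on chromosome 5 and 0 of the 10 markers do. Results without KO mice 1 and 3 stand with the deviations of single mice.

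The stretches before the transcription starts of 3 markers are shown: Cd5l and Adgre4 separated the genotypes without overlap, and Vsig4 holds the most matches to the motif of PU.1, the macrophage lineage factor. Each is the 160 bases before the start, 5′ to 3′ on the gene's strand, from RefSeq promoters on GRCm38.p6. Capitals mark matches on either strand to GAGGAA, a PU.1 core, and to TGCTGA, the core of the site bound by MAF.
Cd5l, chr3:87357721-87357880, plus strand: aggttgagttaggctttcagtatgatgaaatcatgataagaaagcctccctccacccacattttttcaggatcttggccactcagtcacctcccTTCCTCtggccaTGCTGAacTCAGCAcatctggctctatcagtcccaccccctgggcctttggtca
Vsig4, chrX:96293439-96293598, minus strand: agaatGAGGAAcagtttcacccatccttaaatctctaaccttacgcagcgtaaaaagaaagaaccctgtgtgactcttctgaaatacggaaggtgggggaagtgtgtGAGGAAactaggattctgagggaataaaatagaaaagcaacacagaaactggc
Adgre4, chr17:55749824-55749983, plus strand: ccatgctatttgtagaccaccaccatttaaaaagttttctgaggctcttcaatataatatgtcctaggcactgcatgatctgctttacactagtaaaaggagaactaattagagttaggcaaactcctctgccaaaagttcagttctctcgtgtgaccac

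Of the 10 markers 9 had a promoter entry, with 10 starts in all since Folr2 has an alternative start. Over the 250 bases before a start, GAGGAA was found in 3 markers (Cd5l, Vsig4 and Marco), and 23.3% of the 32851 promoters of the table hold it. The MAF core TGCTGA was found in 4 markers (Cd5l, Clec4f, Folr2 and Timd4), against 16.1% of all promoters. In Cd5l the PU.1 core begins 66 bases and the MAF cores 54 and 46 bases before the start, while the match of Clec4f begins 199 bases before its start. The LXR direct repeat (AGGTCA, a gap of any 4 bases, then AGGTCA) was in 0 of the 9 and in 0.0152% of all promoters, and the AP-1 site TGAGTCA was in 1 (Folr2), against 4.46%. No match overlapped another. Clec1b, Cd163 and Adgre4 held none of the 4 motifs in this window.

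Compared per kilobase of annotated exon, the markers kept the same order of level in both genotypes. Cd5l was the most abundant, at 116 ± 13.0 CPM per kb in KO and 82.6 ± 14.3 CPM per kb in WT (SD, n = 6 each). Clec4f followed at 50.0 ± 11.7 in KO and 33.1 ± 8.81 CPM per kb in WT, then Slc40a1 at 26.3 ± 2.27 and 21.3 ± 2.25, Vsig4 at 19.8 ± 4.45 and 15.2 ± 2.29, and Folr2 at 8.12 ± 1.64 and 5.99 ± 1.36. Clec1b (3.88 ± 0.441 in KO, 2.97 ± 0.386 in WT) and Adgre4 (3.31 ± 0.459 and 2.17 ± 0.314) came next. Marco lay at 1.97 ± 0.911 CPM per kb in KO and 1.87 ± 0.522 in WT, and Timd4 and Cd163 were lowest, at no more than 0.598 CPM per kb in any mouse. Neighbours whose mice overlapped in both genotypes were Clec4f and Slc40a1, Clec1b and Adgre4, Adgre4 and Marco, and Timd4 and Cd163. The lengths join all annotated exons of a gene, and for Slc40a1 (9000 bases) and Clec1b (5103 bases) may be longer than the transcripts present.

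KO was compared with WT by limma on log2(CPM + 1), over the 9186 genes averaging 10 CPM or more in the 12 libraries, with Benjamini-Hochberg adjustment over all of them and a threshold of 0.05. Of the 10 markers 6 reached this mean (Clec4f, Cd5l, Vsig4, Clec1b, Slc40a1 and Folr2), and 0 of the 6 passed, where 0.152% of all tested genes did. Folr2 reached the minimum only through its KO level, as its WT mean was under 10 CPM, so it is left out of the counts set beside all tested genes. The other 5 were all higher in KO at an unadjusted limma p under 0.05, as were 4.51% of the tested genes. All 5 had at least 4 KO mice above every WT mouse, against 4.43% of the tested genes, and a positive difference, against 45.6%. Their median log2 difference was 0.37, against -0.01 over all tested genes. In a fit of all 20143 genes, which has no minimum and from which the 4 low markers (Adgre4, Marco, Cd163 and Timd4) were read, 0 of the 10 passed, against 0.144% of all listed genes. There 7 of the 10, the 6 above and Adgre4, were higher in KO at an unadjusted p under 0.05, against 3.12%, and 10 of 10 had a positive difference, against 37.4%. At least 4 KO mice lay above every WT mouse for 7 of the 10, against 3.23%. The median over all 10 was 0.39, against -0.03 over all listed genes. These counts are descriptions only, since the markers were chosen with earlier results of these data known. Several markers also rise and fall together within a genotype (Pearson r = 0.82 for Clec4f and Cd5l), so they are not separate observations. In whole liver, more Kupffer cells, more of these RNAs per cell and RNA from other cells that carry them cannot be told apart.

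**Figure D1:**
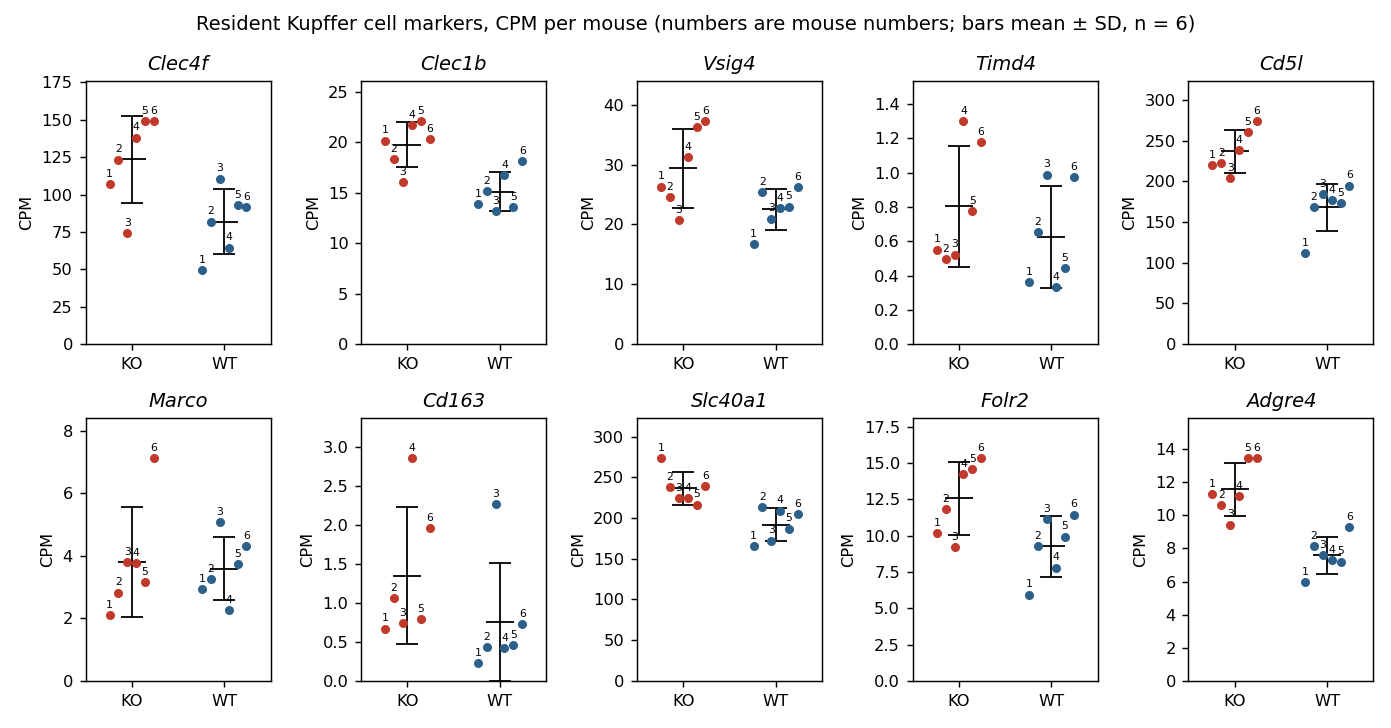
CPM (linear axis from 0) of each of the 10 markers in 6 KO and 6 WT livers, 1 point per mouse with its number, bars showing mean ± SD. Every KO point lies above every WT point for Cd5l, Slc40a1 and Adgre4, as in 0.283% of all listed genes, while the genotypes overlap widely for Marco, Cd163 and Timd4.

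Positions of the markers are whole genes, introns included, in the GENCODE annotation of mm10. Clec4f (ENSMUSG00000014542, chr6:83644542-83656187, minus strand, mm10) encodes a galactose-binding C-type lectin that in mice is made almost only by Kupffer cells. It lay between 74.5 and 149 CPM in KO with a median of 131, and between 49.8 and 111 CPM in WT with a median of 86.6. KO mice 2, 4, 5 and 6 exceeded every WT mouse, while KO mice 1 and 3 lay among the WT values. The KO mean was 1.51 times the WT mean (log2 difference 0.59, SE 0.20, limma adjusted p = 0.279). Clec1b (ENSMUSG00000030159, chr6:129397297-129409335, plus strand) encodes CLEC-2, a podoplanin receptor of platelets that Kupffer cells also carry. It ranged from 16.1 to 22.1 CPM in KO, median 20.2, and from 13.2 to 18.1 CPM in WT, median 14.5, so that 5 of 6 KO mice exceeded every WT mouse (log2 difference 0.37, SE 0.09, adjusted p = 0.153). The annotation of Clec1b overlaps that of the dendritic cell gene Clec9a on the same strand, and Clec9a was at 7.52 ± 1.31 CPM in KO and 6.10 ± 0.742 in WT. The platelet genes Pf4, Ppbp, Itga2b and Treml1 summed to 5.66 to 7.66 CPM in KO and 5.49 to 7.07 CPM in WT, with Pf4 at 3.15 ± 0.649 CPM in KO and 3.11 ± 0.475 in WT. Ppbp was at 1.00 ± 0.440 CPM in KO and 0.533 ± 0.155 in WT (log2 difference 0.36, unadjusted p = 0.0138, limma adjusted p = 0.250), and 4 of 6 KO sums exceeded every WT sum, the same direction as Clec1b. Their part in the Clec1b difference was not tested.

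Vsig4 (ENSMUSG00000044206, chrX:96247203-96293438, minus strand), or CRIg, the complement receptor with which Kupffer cells catch bacteria from the flow, lay between 20.8 and 37.2 CPM in KO, median 28.8, and between 16.8 and 26.2 CPM in WT, median 22.9. KO mice 1, 4, 5 and 6 were above all WT mice, KO mouse 1 by a narrow margin (log2 difference 0.35, SE 0.14, adjusted p = 0.392). Without KO mouse 5, KO mouse 6 or WT mouse 1 its unadjusted p no longer reached 0.05. Timd4 (ENSMUSG00000055546, chr11:46810800-46844332, plus strand) encodes TIM-4, a phosphatidylserine receptor for apoptotic cells. It was barely present, from 0.497 to 1.30 CPM in KO, median 0.663, and from 0.331 to 0.989 CPM in WT, median 0.549, which stood for 19 to 68 counts per library. The genotypes overlapped (log2 difference 0.15, 95% interval -0.15 to 0.44, limma adjusted p = 0.798). With 1 mouse left out the difference ranged from 0.07, without KO mouse 4, to 0.21, without WT mouse 3.

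Cd5l, Marco and Cd163 carry scavenger receptor cysteine-rich domains. Cd5l (ENSMUSG00000015854, chr3:87357881-87371073, plus strand), a secreted protein (AIM) that binds IgM and is a target of LXR in mouse macrophages, ranged from 204 to 274 CPM in KO with a median of 231, and from 112 to 195 CPM in WT with a median of 175. Every KO mouse exceeded every WT mouse, a separation seen in the same direction in 0.359% of the tested genes (log2 difference 0.50, SE 0.12, adjusted p = 0.134). WT mouse 1, at 112 CPM, lay far under the other WT mice, and without it the log2 difference was 0.39 (adjusted p = 0.0983). Marco (ENSMUSG00000026390, chr1:120474538-120505024, minus strand), a scavenger receptor for unopsonised bacteria, lay between 2.10 and 7.14 CPM in KO, median 3.46, and between 2.26 and 5.08 CPM in WT, median 3.49. KO mouse 6 alone stood above the WT range, and the difference was near 0 (log2 difference 0.02, 95% interval -0.41 to 0.46, adjusted p = 0.985). Its sign turned without KO mouse 6, at -0.14, and also without WT mouse 1 or WT mouse 4. Cd163 (ENSMUSG00000008845, chr6:124304656-124330527, plus strand), the receptor for haptoglobin-bound haemoglobin, was at 0.670 to 2.86 CPM in KO, median 0.926, and 0.224 to 2.26 CPM in WT, median 0.448. KO mice 4 and 6 and WT mouse 3 held most of it, at 1.96 CPM or more, against 1.06 CPM or less in all others (log2 difference 0.43, 95% interval -0.10 to 0.96, adjusted p = 0.577). It was 0.27 without KO mouse 4, and 0.63 without WT mouse 3 (unadjusted p = 0.00794, limma adjusted p = 0.174).

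Slc40a1 (ENSMUSG00000025993, chr1:45908068-45926523, minus strand) encodes ferroportin, the iron exporter through which Kupffer cells return the iron of digested red cells; hepatocytes also carry it. It lay between 217 and 274 CPM in KO, median 232, and between 165 and 213 CPM in WT, median 196. Every KO mouse was above every WT mouse, as in 0.359% of the tested genes. The log2 difference was 0.30 (SE 0.08, adjusted p = 0.158). Here KO mouse 1 was highest and KO mouse 5 lowest, unlike in the other markers. The other 11 genes of haemoglobin and iron handling all reached the minimum: 0 passed, 0 had an unadjusted p under 0.05, and their median log2 difference was 0.04. Over all tested genes 0.152% passed, and at that p 4.51% were higher and 5.29% lower in KO. Among the 11 genes the haem oxygenase Hmox1 was at 64.8 ± 12.0 CPM in KO and 70.5 ± 8.36 in WT. The hormone gene Hamp, whose product degrades ferroportin, was at 225 ± 85.1 and 190.0 ± 33.1 CPM.

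Adgre4 and Folr2 closed the list. Adgre4 (ENSMUSG00000032915, chr17:55749984-55853662, plus strand) encodes an adhesion G protein-coupled receptor related to F4/80, also found on other myeloid cells in mice. It lay between 9.45 and 13.5 CPM in KO, median 11.2, and between 5.97 and 9.28 CPM in WT, median 7.43. No KO mouse overlapped a WT mouse, although the lowest KO and highest WT values nearly met; 0.283% of all listed genes separated in this direction. Its KO mean was 1.53 times the WT mean, the nearest to a call of all 10 (log2 difference 0.55, SE 0.10, limma adjusted p = 0.0561 over all listed genes). It passed in 6 of 21 alternative settings, among them the fit without KO mouse 3 (adjusted p = 0.0307) and that without KO mice 1 and 3 (adjusted p = 0.0246), while its log2 difference stayed between 0.29 and 0.62. Folr2 (ENSMUSG00000032725, chr7:101839988-101857194, minus strand), a folate receptor of resident macrophages, lay between 9.21 and 15.3 CPM in KO, median 13.0, and between 5.94 and 11.4 CPM in WT, median 9.60. KO mice 2, 4, 5 and 6 were above every WT mouse (log2 difference 0.41, SE 0.16, adjusted p = 0.348). The antisense gene Gm10602 overlaps Folr2, with 479 aligned bases at 99.8% identity. Gm10602 was at 1.30 to 2.51 CPM in KO and 1.42 to 2.12 CPM in WT, and whether reads were counted by strand is not stated.

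**Figure D2:**
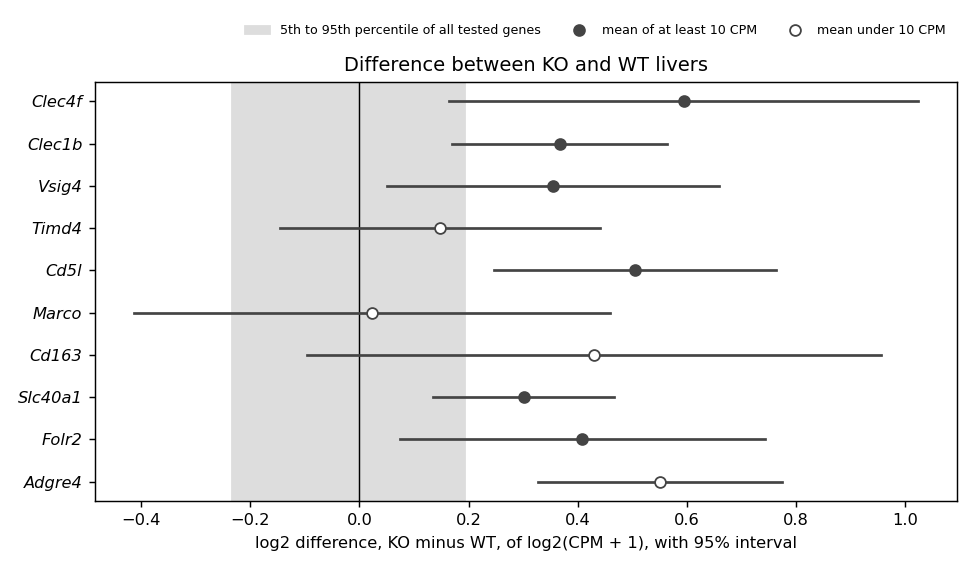
Log2 difference KO minus WT of log2(CPM + 1) for the 10 markers, with 95% intervals from limma (filled, mean of at least 10 CPM; open, under 10 CPM). The grey band spans the 5th to the 95th percentile of all tested genes, -0.23 to 0.19; 6 filled points and the open points of Adgre4 and Cd163 lie to its right.

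The same mice tended to be low or high across the markers within a genotype. KO mouse 3 was the lowest KO mouse for 6 of the 10 markers and WT mouse 1 the lowest WT mouse for 7. Averaged over the 6 tested markers, KO mouse 3 lay 0.35 and WT mouse 1 lay 0.41 on the log2 scale under the mean of their genotype (-0.35 and -0.41), and KO mouse 6 and WT mouse 6 were highest, at 0.21 and 0.22 above it. After subtracting genotype means, Clec4f and Folr2 followed each other most closely over the 12 mice (Pearson r = 0.95), and Cd5l followed Folr2 (0.89), Clec4f (0.82) and Vsig4 (0.81). Slc40a1 was related to Clec4f and Folr2 least (0.03 for each). These are descriptions over mice whose values share a library and its scaling. Without KO mice 1 and 3, left out after the data were seen, 0 of the 6 tested markers passed. Of all 9186 tested genes 89 passed in this setting, 76 of them higher in KO. The log2 differences of the 6 markers lay between 0.26 for Slc40a1 and 0.81 for Clec4f. Their median was 0.53, against 0.003 over all tested genes.

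The genes most like the markers were sought among 9166 other tested genes by the correlation, over the 12 mice after subtracting genotype means, with the mean log2 value of the 6 tested markers. Colec10, a collectin made by stellate cells in the liver, was nearest (Pearson r = 0.95, Spearman rho = 0.91; 0.82 without the 2 mice farthest from the median). It was at 27.1 ± 4.74 CPM in KO and 16.8 ± 4.12 CPM in WT (log2 difference 0.68, limma adjusted p = 0.154). Fcna, the ficolin gene of Kupffer cells, was at rank 3 (r = 0.90), at 19.4 ± 5.19 CPM in KO and 15.2 ± 3.59 in WT (adjusted p = 0.608). The other 6 were Dnajc25 (r = 0.91), Sec16b (0.89), Tedc2 (0.88), Esr1 (0.87), Sdhaf2 (0.85) and the chaperone gene Hspa5 (0.84), with log2 differences between 0.00 and 0.19. Of the 8 sinusoidal endothelial markers the nearest were Gpr182 at rank 11 (r = 0.83) and Stab2 at rank 14 (r = 0.82). The others ranged from Kdr at rank 35 (r = 0.78) to Lyve1 at rank 3203 (r = 0.21). No p is given, since the genes were picked as the most alike.

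**Figure D3:**
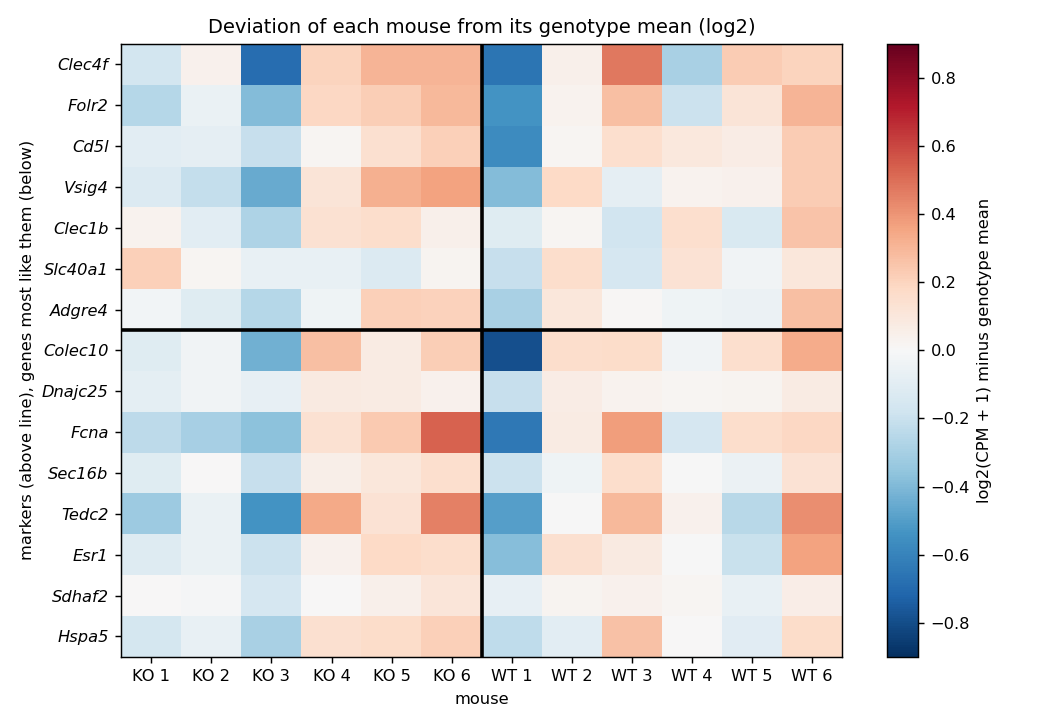
Deviation of log2(CPM + 1) from the genotype mean (colour, log2 scale) in each of 12 mice, for 7 markers above the line and the 8 genes most like them below it. KO mouse 3 and WT mouse 1 are low, and KO mouse 6 and WT mouse 6 high, in most rows.

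Other genes listed as enriched in Kupffer cells, whose values in whole liver may include other cells, had differences of both signs. Of 18 such genes 11 were tested: 0 passed, 10 had a higher KO mean, and 5 were higher in KO at an unadjusted p under 0.05 (median log2 difference 0.28). Over all tested genes 0.152% passed, 45.6% had a positive difference and 4.51% were higher in KO at that p. Nearest to a call were Il18bp, the soluble antagonist of interleukin 18 (26.9 ± 4.85 CPM in KO, 19.4 ± 1.19 in WT, adjusted p = 0.134), Hpgd, which inactivates prostaglandins (58.9 ± 7.78 and 46.8 ± 5.74, adjusted p = 0.217), and Cfp, properdin (30.5 ± 4.91 and 23.7 ± 3.17, adjusted p = 0.238). The lectin receptors Siglec1 (79.1 ± 18.5 CPM in KO, 59.5 ± 9.51 in WT, adjusted p = 0.375) and Mrc1 (87.0 ± 14.9 and 70.8 ± 9.23, adjusted p = 0.390) also had higher KO means. Of the 7 under the minimum 3 had positive and 4 negative differences, and for 2 with a lower KO mean, Gfra2 and Cd207, the unadjusted p was under 0.05, against 8.23% of all listed genes. Gfra2, a receptor subunit for neurturin, was at 1.72 ± 0.337 CPM in KO and 2.50 ± 0.658 in WT (adjusted p = 0.239). Cd207, the langerin gene, was at 4.52 ± 0.951 CPM in KO and 6.63 ± 1.69 in WT (adjusted p = 0.245 over all listed genes).

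Of 10 tested identity regulators 4 had positive and 6 negative differences, 0 passed, and 1 had an unadjusted p under 0.05 (median log2 difference -0.03). That gene was Id1, a target of BMP signalling (11.0 ± 3.77 CPM in KO, 15.1 ± 2.05 in WT, adjusted p = 0.333). Among all tested genes 0.152% passed, 45.6% had a positive difference and 5.29% were lower in KO at that unadjusted p. Nr1h3 was at 85.3 ± 6.71 CPM in KO and 80.6 ± 6.32 in WT, and Spic, under the minimum, at 2.75 ± 0.436 and 2.26 ± 0.366. Within genotypes, Maf (r = 0.65, rank 243), Nr1h3 (0.57) and Id3 (0.56) were the regulators most like the mean of the tested markers. Of 8 tested niche signals and receptors all had negative differences with a median of -0.08, and 0 passed. Over all tested genes 45.6% had a positive difference. Tgfbr2 was at 72.5 ± 3.48 CPM in KO and 80.9 ± 8.21 in WT (adjusted p = 0.452). Bmp10, a ligand made by stellate cells, was under the minimum and higher in 5 of 6 KO mice than in any WT mouse (5.50 ± 0.924 CPM in KO, 3.97 ± 0.722 in WT, adjusted p = 0.174). Of 7 LXR target genes 0 passed, against 0.152% of all tested genes (median log2 difference 0.04). The biliary sterol transporters Abcg5 (37.7 ± 9.34 CPM in KO, 27.5 ± 4.01 in WT, adjusted p = 0.285) and Abcg8 (64.7 ± 17.9 and 47.1 ± 7.11, adjusted p = 0.347), which in liver belong to hepatocytes, had higher KO means, and Abca1 was at 413 ± 20.2 and 425 ± 34.4 CPM. Of 8 receptors and bridging proteins for apoptotic cells 4 had positive and 4 negative differences and 0 passed. Mfge8 (82.6 ± 12.1 CPM in KO, 125 ± 44.5 in WT, adjusted p = 0.272) and Gas6 (72.6 ± 9.85 and 97.0 ± 24.5, adjusted p = 0.292) had lower KO means.

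The 10 pan-macrophage markers summed to 1236 to 1586 CPM in KO, median 1310, and 1154 to 1593 CPM in WT, median 1332, and 0 of 9 tested passed (median log2 difference 0.04). Adgre1, the F4/80 gene, was at 66.7 ± 10.8 CPM in KO and 63.1 ± 5.08 in WT, and Csf1r at 176 ± 25.1 and 170 ± 12.0. Single genes of the list went both ways: Fcgr1 was at 13.1 ± 3.05 CPM in KO and 10.3 ± 1.40 in WT (log2 difference 0.29, adjusted p = 0.547). Ctss was at 228 ± 24.4 CPM in KO and 269 ± 56.9 in WT (-0.22, adjusted p = 0.610), and Cd68 at 56.1 ± 11.4 and 64.7 ± 8.90 (-0.21, adjusted p = 0.654). The 16 markers of monocyte-derived and lipid-associated macrophages summed to 1469 to 2178 CPM in KO and 2189 to 3928 CPM in WT, without overlap. The list holds Spp1 (osteopontin), which lies on chromosome 5, 458 kb from Hsd17b13, and was at 182 ± 58.6 CPM in KO and 384 ± 171 in WT (log2 difference -1.02, limma adjusted p = 0.158). Without Spp1, left out after the values were seen, the sums were 1312 to 1963 CPM in KO and 1921 to 3248 CPM in WT, and KO mouse 5 lay above WT mouse 5. All 14 tested had lower KO means, 11 at an unadjusted p under 0.05 where 5.29% of the tested genes were lower, and 0 passed. A positive difference was seen in 45.6% of the tested genes. Lyz2 (536 ± 81.5 CPM in KO, 810 ± 162 in WT, adjusted p = 0.120) was lower in every KO mouse than in any WT mouse, as were 0.533% of the tested genes. The 2 genes of the list under the minimum went opposite ways. S100a4 had the lower KO mean (4.997 ± 0.450 CPM in KO, 7.28 ± 1.48 in WT, log2 difference -0.45, limma adjusted p = 0.104). Ly6c2, a marker of inflammatory monocytes, had the higher KO mean (5.33 ± 2.40 CPM in KO, 3.08 ± 0.568 in WT, adjusted p = 0.258). Its highest value was 9.39 CPM, in KO mouse 2. WT mouse 1, low in most Kupffer markers, held the highest sums of both lists, at 118% and 139% of the WT mean.

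The markers were also scaled to 1000 CPM of the pan-macrophage sum. Cd5l was at 164 to 187 in KO and 70.2 to 150 in WT, and Adgre4 at 7.65 to 9.17 in KO and 3.75 to 7.09 in WT, so these genes still separated the genotypes. Slc40a1 overlapped on this scale, where KO mouse 5 lay among the WT mice (137 to 209 in KO, 104 to 162 in WT). Clec4f was at 89.9 ± 16.7 in KO and 62.8 ± 21.7 in WT (SD, n = 6 each), and Marco at 2.77 ± 1.17 and 2.74 ± 0.958. No test was made on these ratios, which are not levels per macrophage. The largest parts of the pan-macrophage sum are Mpeg1 (500 ± 36.5 CPM in KO, 453 ± 51.5 in WT) and Ctss (228 ± 24.4 and 269 ± 56.9). WT mouse 1, low in most Kupffer markers, held the highest sum.

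**Figure D4:**
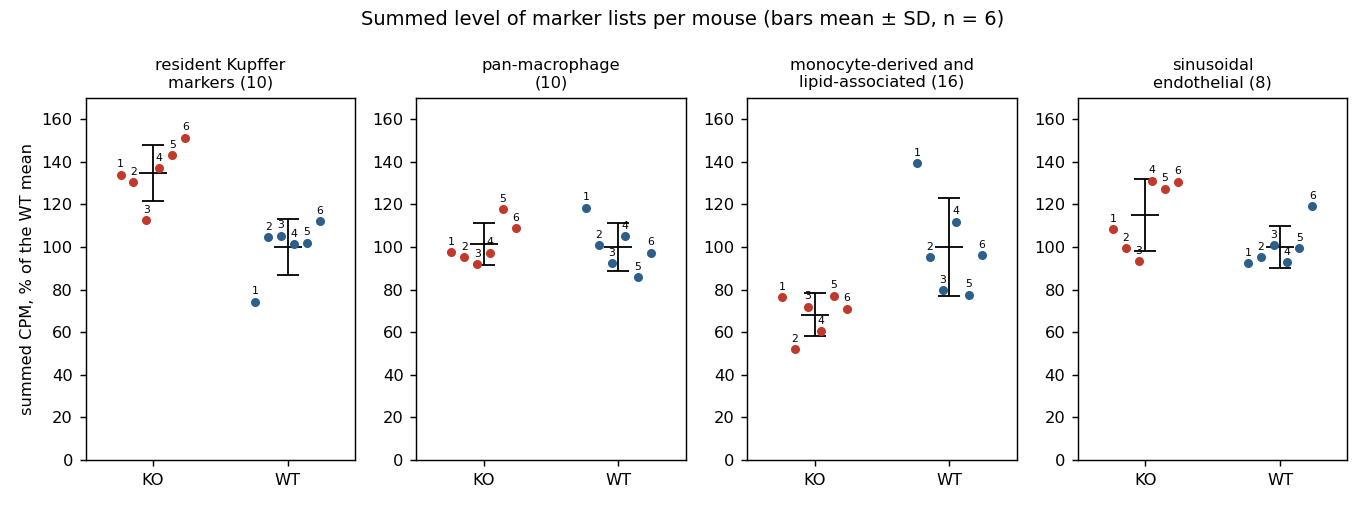
Summed CPM of 4 marker lists in each mouse as a percent of the WT mean (linear axis from 0), KO left and WT right, bars mean ± SD, numbers the mice. The 10 Kupffer markers sum to 112.5% to 151% in KO and 74.3% to 112.1% in WT, so the groups nearly meet. Cd5l, Slc40a1 and Clec4f, at KO means of 237, 236 and 123 CPM, make up most of the KO mean sum of 676 CPM. The pan-macrophage list overlaps. The monocyte-derived list lies at 52.1% to 77.2% in KO and 77.6% to 139% in WT, where the groups overlap once Spp1 is left out.

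Markers of neighbouring cells are given beside these results. The 8 sinusoidal endothelial markers, all tested, had higher KO means (median log2 difference 0.19, 2 at an unadjusted p under 0.05, 0 passed). A positive difference was seen in 45.6% of the tested genes, and 4.51% were higher in KO at that p. The 8 markers summed to 339 to 477 CPM in KO and 336 to 433 CPM in WT. Kdr, the receptor for VEGF, was nearest to a call (67.9 ± 9.54 CPM in KO, 57.2 ± 6.26 in WT, adjusted p = 0.401), followed by Oit3 (29.2 ± 6.33 and 22.8 ± 3.46, adjusted p = 0.416). Conventional dendritic cell markers summed to 18.5 to 28.5 CPM in KO and 19.1 to 29.4 in WT, and neutrophil markers to 5.35 to 24.6 CPM in KO and 3.65 to 20.2 in WT. Proliferation markers summed to 56.7 to 107 CPM in KO and 74.2 to 124 CPM in WT, Mki67 being at 49.6 ± 13.9 CPM in KO and 62.0 ± 15.4 in WT (adjusted p = 0.632). Alb was at 44794 ± 4817 CPM in KO and 44936 ± 5052 in WT. The part of these cells in the Kupffer marker differences was not tested.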

How the data were processed

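RNA from 25 to 100 mg of liver was extracted with TRIzol and RNeasy columns, and 1 µg went into directional libraries after removal of globin and ribosomal RNA, per the labels' protocols; the molecule label says polyA RNA instead. The submitters' processing notes name mm10, STAR 2.7.3a, Partek 10.0 and DESeq2 1.14.1 and no step they served; neither counting tool nor annotation is named. CPM values were deposited, each column summing to 1000000 over 20143 genes. Low values were whole multiples of the estimated step (tolerance 0.02 steps) in 71.4% to 76.5% of cases, too few to recover reads for a count test. IDs were matched to GENCODE M21 (20055 matched, 88 did not), which gave positions and exon lengths.

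Limma 3.58.1 in R 4.3.3 compared KO with WT on log2(CPM + 1) of genes averaging 10 CPM or more (empirical Bayes, mean trend, two-sided, no covariate). Differences are KO minus WT and understate the change of low genes. Nothing in the labels ties mice by number, and same-numbered mice did not deviate together (correlations -0.51 to 0.39), so the comparison is unpaired. P-values measure the spread between 6 mice per group. Members and lists were chosen with earlier results of these data known. The named genes are all members, Hsd17b13, up to 3 genes of smallest p per list, and the 8 genes most like the members; further genes were named after their values were seen. Gp9, Gp1bb and Ly6g, members of the platelet and neutrophil lists, had no values under those names. The sums of these 2 lists therefore rest on 4 genes each. BLASTN 2.17.0 found 0 transcripts of other genes at least 95% identical to a member over at least 500 bases. Just under that length, Gm10602 matched Folr2 at 99.8% identity over 479 bases. Alternatives covered pseudocount, filter, scaling, trend, weights, block and left-out mice.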

Additional observations from a re-analysis of the deposited data

Results flagged for a closer look

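A mouse far from the others of its group was found in 7 of 50 groups examined (the CPM of 10 markers and Hsd17b13 and the summed CPM of 14 other lists, in KO and in WT); chance gives about 1 in 20. Cd5l was at 112 CPM in WT mouse 1, with the next WT mouse at 168 CPM. Marco was at 7.14 CPM in KO mouse 6, with the next KO mouse at 3.80 CPM. Cd163 was at 2.26 CPM in WT mouse 3, with the next WT mouse at 0.724 CPM. WT mouse 6 stood above the other WT mice in the summed CPM of haemoglobin and iron genes (14392, next 12118), of sinusoidal endothelial markers (433, next 367) and of neutrophil markers (20.2, next 7.79). The hepatocyte markers summed to 66989 CPM in WT mouse 5, with the next WT mouse at 55377 CPM.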

How the results depend on the processing

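Of 215 values of single markers under the alternatives, 206 kept their direction and their side of the threshold. Marco, at 0.02, ranged from -0.14 to 0.14 with 1 mouse left out and turned negative without KO mouse 6 (-0.14), WT mouse 1 (-0.02) and WT mouse 4 (-0.07). Adgre4 passed with quantile normalization (adjusted p = 0.0256), median-of-ratios rescaling (0.0346), library weights (0.0339), a mean of at least 1 CPM (0.0495), without KO mouse 3 (0.0307) and without KO mice 1 and 3 (0.0246, chosen after seeing the data); its adjusted p ranged from 0.0246 to 0.154. Hence 1 marker passed with a mean of at least 1 CPM and 0 in the other settings among those at or above their minimum. The count of all called genes was 14, and 29 with no filter, 31 with a mean of at least 1 CPM, 35 with library weights, 89 without KO mice 1 and 3, and 9 to 25 with 1 mouse left out, the ends being without WT mouse 3 and without KO mouse 3; the cause was not tested. With the replicate block 11 of all 9186 tested genes were called and 0 of the 6 tested markers. That block left Adgre4 at a limma adjusted p of 0.0580. With a pseudocount of 10 the log2 differences of low genes shrank by construction, to 0.29 for Adgre4, 0.23 for Folr2, 0.08 for Cd163 and 0.02 for Timd4. Counting error was at most 5.39% for markers at a mean of 9 CPM or more, and up to 27.7% for Cd163 and 22.9% for Timd4.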
